A study of Mus musculus with 2 samples.

Results

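The *Mab21l* family was followed through the cells of the mouse ocular area. The 3 members followed here, *Mab21l1*, *Mab21l2* and *Mab21l3*, were chosen by name among the 27998 genes counted, and all 3 were present in both libraries. *Mab21l4*, counted under its older symbol *2310007B03Rik*, was not among them and is placed with the further Mab21-domain genes below. Single cells of the 26-somite ocular area (E9.25, strain C57BL/6J) were profiled on the 10x Chromium 3′ platform, in which each captured RNA molecule carries a droplet barcode and a unique molecular identifier (UMI). 1 library was labelled wild type (WT) and 1 was labelled *Mab21l1*-null (KO); each came from the pair of optic areas of 1 embryo. The KO embryo came from the *Mab21l1*-null line, and how its null allele is built is not given in the sources used here. With 1 embryo per genotype no test was made, and differences between embryos, between libraries and between genotypes cannot be told apart.

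Mab21 proteins share a fold with nucleotidyltransferases, the enzyme family to which the DNA sensor cGAS belongs. In vertebrates *Mab21l1* and *Mab21l2* are known from eye development: *Mab21l1* is needed in the ectoderm that forms the lens, and *Mab21l2* is needed in the optic vesicle, the outgrowth of the forebrain that becomes retina and retinal pigment epithelium. Little is established about *Mab21l3*. At this stage the optic vesicle contacts the surface ectoderm, and both lie in mesenchyme derived largely from neural crest.

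All 3 genes lie on chromosome 3 of GRCm38. *Mab21l1* (ENSMUSG00000056947) lies on the plus strand, from 55782510 to 55785001, with 1 exon. *Mab21l2* (ENSMUSG00000057777) runs from 86545581 to 86548629 on the minus strand. Each of them lies inside a much longer gene on the opposite strand, *Mab21l1* inside *Nbea* and *Mab21l2* inside *Lrba*, and overlaps an exon of that gene. *Mab21l3* (ENSMUSG00000044313), from 101813076 to 101848959 on the minus strand, overlaps no exon of another gene. The coding parts of *Mab21l1* and *Mab21l2* are both 1080 bases long, 359 codons before the stop, and 871 of the 1080 positions (80.6%) are identical. The longest run of identical bases shared by their transcripts is 26 bases, at coding positions 211 to 236 in both genes. The coding part of *Mab21l3* has 1290 bases. Where it aligns without a gap, 645 of 1030 positions (62.6%) are identical to *Mab21l1* and 632 of 1048 (60.3%) to *Mab21l2*. Its transcript shares no run above 11 bases with either. Coding positions 196 to 251 are shown because they hold that longest shared run; they come from the GENCODE vM21 transcripts, and capitals mark the 4 positions at which the genes differ.
Mab21l1: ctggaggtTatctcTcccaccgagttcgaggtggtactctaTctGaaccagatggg
Mab21l2: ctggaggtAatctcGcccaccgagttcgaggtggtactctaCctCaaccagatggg
A read longer than 26 bases can thus match no more than 1 of these transcripts without a mismatch. RefSeq places the 3′ end of *Mab21l1* 286 bases beyond the GENCODE model and that of *Mab21l2* at -469 bases, short of it, and counts in a 3′ assay depend on the model used. The gene model release used for counting is not given in the sources used here.

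The kept cells numbered 1680 with 41880035 UMIs in the library labelled WT and 2404 with 52430844 UMIs in the library labelled KO, with medians of 21037 and 18135 UMIs per cell. 15 barcode sequences occurred in both libraries, and leaving them out moved no ratio, level or share of the members beyond its counting interval. Cells were assigned to classes by the number of detected markers, none of which is a *Mab21l* gene, and a class is called retina-like and so on after its markers. Retina-like cells held a median of 4 of 5 retina markers, pigment epithelium-like cells 5 of 7 pigment epithelium markers (and 3 retina markers), ectoderm-like cells 6 of 10 ectoderm markers and mesenchyme-like cells 8 (WT) and 7 (KO) of 10 mesenchyme markers. Forebrain-like cells were the least separate: they held a median of 3 of 11 forebrain markers and 2 retina markers, and 144 of 226 lay at the limit of the class. Of 866 cells in no class, 460 (53.1%) held at least 3 retina markers. Levels are given as UMIs per 1000000 UMIs of the class (CPM), brackets after a level hold its exact 95% Poisson interval, and brackets after a share its exact 95% binomial interval. These intervals cover counting error only, not differences between cells or embryos. As the assay counts transcript ends, no scaling by length was made, and levels are compared within a gene.

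The disrupted gene was detected in both libraries. *Mab21l1* gave 849 UMIs, or 20.3 CPM [18.9, 21.7], in the library labelled WT, and 1706 UMIs, or 32.5 CPM [31.0, 34.1], in the library labelled KO. Its RNA was therefore not lost in the library labelled KO, where it was 1.61 times the WT level [1.48, 1.74], while 2.68% of 14568 genes with at least 20 UMIs lay more than 1.5-fold higher and 4.04% more than 1.5-fold lower. Where in the gene these reads lie is not seen in the counts, which therefore neither check the label nor show whether the RNA can be translated. Both libraries are named by their labels below, and each direction rests on those labels. Part of the difference went with the mix of classes: with the class mix of the WT library, the KO level would be 29.0 CPM, or 1.43 times the WT level.

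In the library labelled WT the level of *Mab21l1* was highest in ectoderm-like cells, at 74.9 CPM [59.5, 92.9] over 53 cells. Retina-like cells followed at 43.8 CPM [38.9, 49.2] over 282 cells, and pigment epithelium-like cells at 29.7 CPM [25.3, 34.6] over 168 cells. These 3 intervals did not overlap. With unassigned cells of at least 3 retina markers added, the retina-like level was 33.0 CPM [30.1, 36.2], which overlapped that of pigment epithelium-like cells. Mesenchyme-like cells, at 3.68 CPM [2.61, 5.05], forebrain-like cells, at 2.33 CPM [0.756, 5.44], and endothelium-like cells, at 1.11 CPM [0.134, 3.999], could not be ordered by their intervals. Erythroid-like cells held 0 UMIs, which allows up to 2.25 CPM by a count of 3. The order changed in the library labelled KO, where retina-like cells had the highest level, 80.5 CPM [75.4, 85.8], above ectoderm-like cells at 40.2 CPM [27.3, 57.0] and pigment epithelium-like cells at 39.9 CPM [35.0, 45.4], which overlapped. In that library forebrain-like and endothelium-like cells, at 5.33 CPM [2.91, 8.93] and 4.98 CPM [2.58, 8.71], overlapped each other. A level in forebrain-like cells above that of endothelial and blood cells, which should lack the gene, was thus not detectable in either library with the gated cells. In the unsupervised grouping 1 of the clusters named forebrain-like held 18.0 CPM of *Mab21l1* in 150 WT cells and 24.3 CPM in 57 KO cells, and the other held 2.17 and 1.44 CPM in 129 and 208 cells.

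*Mab21l2* had another order, and that order was shared by both libraries for its top 3 classes. Pigment epithelium-like cells came first, at 389 CPM [373, 406] in the library labelled WT and 377 CPM [362, 393] in the library labelled KO. Retina-like cells came second, at 181 CPM [171, 192] and 149 CPM [142, 156], and forebrain-like cells after them, at 65.2 CPM [54.9, 77.0] and 72.7 CPM [62.7, 83.7]. Neighbouring intervals among these 3 classes did not overlap in either library. In the KO library the forebrain-like interval overlapped that of neural crest-like cells, at 54.7 CPM [37.2, 77.7]. In the unsupervised grouping the clusters named forebrain-like stood at 71.6 and 138 CPM in the WT library, and at 85.6 and 119 CPM in the KO library. Forebrain-like cells were not divided by the retina markers that they also held. Endothelium-like cells, at 7.75 CPM [4.24, 13.002] and 2.49 CPM [0.914, 5.42], and erythroid-like cells, at 2.25 CPM [0.465, 6.59] and 1.75 CPM [0.361, 5.11], marked the low end, although in an unsupervised grouping the KO level was 8.401 CPM [4.80, 13.6] in the erythroid-like cluster and 8.78 CPM [5.50, 13.3] in the endothelium-like one. Pigment epithelium-like cells held 36.0% of all *Mab21l2* UMIs of the WT library and 33.0% of those of the KO library, from 10.0% and 8.24% of the cells.

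**Figure D1:**
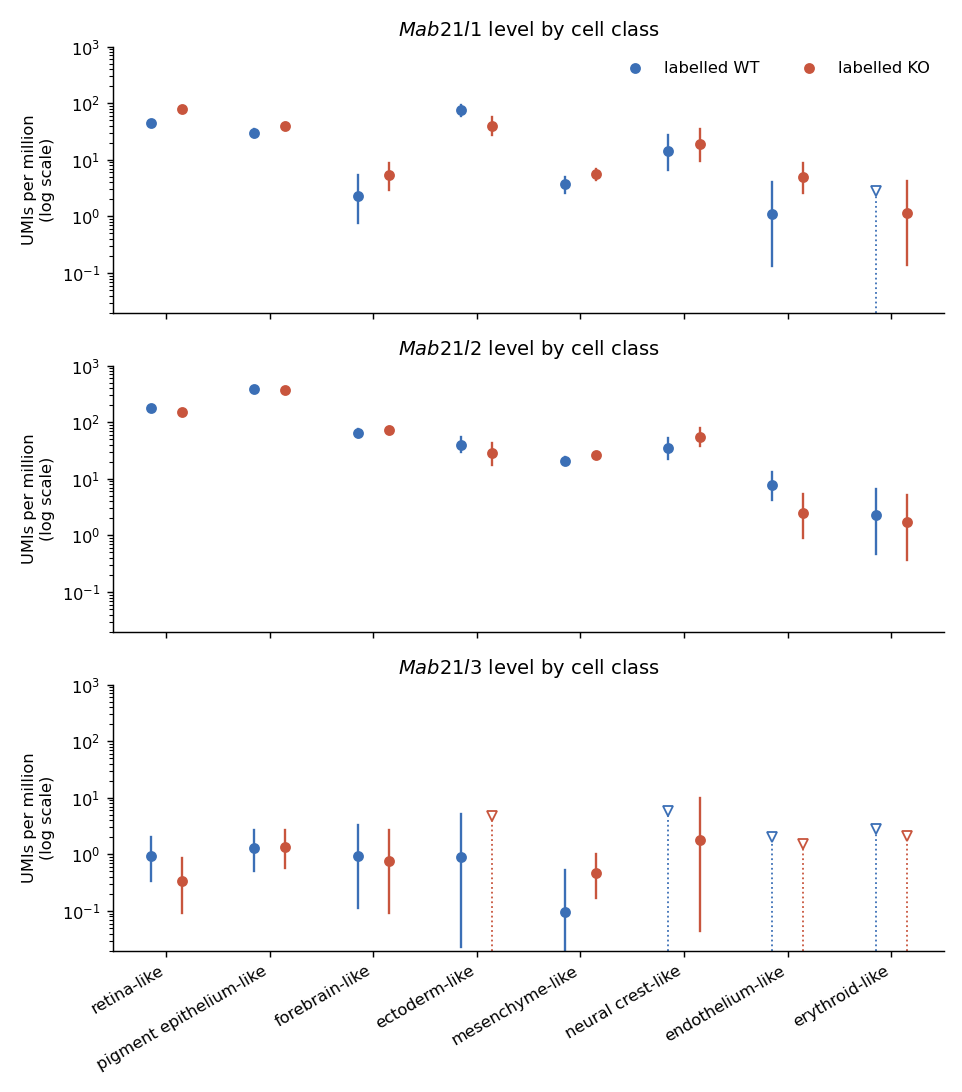
Level of each family member in 8 cell classes, in CPM on a log axis, for the libraries labelled WT (blue) and KO (red); points are levels, lines exact 95% Poisson intervals for counting error, and open triangles on dotted lines the upper limits of classes with 0 UMIs. *Mab21l1* is highest in ectoderm-like cells of the WT library (74.9) and retina-like cells of the KO library (80.5), *Mab21l2* in pigment epithelium-like cells of both (389 and 377), and *Mab21l3* stays under 2 in every class.

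*Mab21l3* was close to the limit of detection. In the library labelled WT 26 UMIs were found in 26 cells, or 0.621 CPM [0.406, 0.910], and in the library labelled KO 31 UMIs in 30 cells, or 0.591 CPM [0.402, 0.839]. Pigment epithelium-like cells held 7 and 8 of these UMIs, or 1.28 CPM [0.515, 2.64] and 1.35 CPM [0.584, 2.67], and retina-like cells 6 and 4. Mesenchyme-like cells held 1 UMI over 503 cells of the WT library, or 0.0969 CPM [0.00245, 0.540], and 6 UMIs over 765 KO cells, or 0.464 CPM [0.170, 1.01]. No UMI was seen in the endothelium-like or erythroid-like cells of either library. Of the 26 WT cells with *Mab21l3*, 21 also held *Mab21l2* and 16 held *Mab21l1*. Among the 30 KO cells, 20 and 12 did. Over all kept cells *Mab21l2* was detected in 49.8% of WT and 51.2% of KO cells, and *Mab21l1* in 23.7% and 26.9%. The depth of the cells with *Mab21l3*, which affects detection of every gene, was not compared. Neighbouring classes in the order of *Mab21l3* levels overlapped throughout.

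Cell by cell, *Mab21l2* in the pigment epithelium-like class was detected in every cell, 168 of 168 and 198 of 198, with medians of 11.5 and 10 UMIs per cell and highest values of 50 and 33. In retina-like cells it was detected in 76.6% [71.2, 81.4] of WT and 77.2% [73.4, 80.7] of KO cells, with medians of 3 and 2 UMIs and highest values of 23 and 21. *Mab21l1* was detected in 46.8% [40.9, 52.8] of retina-like WT cells and 56.8% [52.5, 61.1] of retina-like KO cells. Cells with 5 or more *Mab21l1* UMIs made up 2.84% of retina-like WT cells (8 cells) and 13.8% of retina-like KO cells (73 cells), and the highest cell held 11 and 17 UMIs. When each cell was thinned to 10000 UMIs, the shares with *Mab21l1* were 34.8% [28.9, 41.1] and 42.2% [37.8, 46.7], with overlapping intervals. As background, *Mab21l1* was detected in 3.17% [0.387, 11.0] and 11.0% [5.62, 18.8] of endothelium-like cells, whose median depths were 25001 and 20262 UMIs against 21516 and 19254.5 in retina-like cells. After thinning the endothelial shares were 3.28% [0.400, 11.3] and 3.16% [0.656, 8.95], from 2 and 3 cells, well under the retina-like ones. For *Mab21l2* the same background shares before thinning were 12.7% [5.65, 23.5] and 6.00% [2.23, 12.6].

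The comparison of the library labelled KO with the library labelled WT, class by class, asked whether the family changed where *Mab21l1* is disrupted. In retina-like cells *Mab21l1* was 1.84 times as high in the library labelled KO [1.61, 2.11], where brackets hold the 95% interval of the ratio for counting error. Among 11640 genes with at least 20 UMIs in retina-like cells, 4.15% lay more than 1.5-fold higher and 3.38% more than 1.5-fold lower. The ratio was 1.80 [1.47, 2.23] after thinning, 2.11 [1.825, 2.44] in the retina-like cluster of an unsupervised grouping, and 1.84 [1.65, 2.05] when unassigned cells with at least 3 retina markers were added. In pigment epithelium-like cells the ratio of *Mab21l1* was 1.35 [1.10, 1.65], within 1.5-fold, and after thinning its interval reached below 1, at 1.24 [0.858, 1.82]. There 5.05% of 11099 genes lay more than 1.5-fold higher and 3.39% more than 1.5-fold lower. Endothelium-like cells, the background class above, gave a ratio of *Mab21l1* of 4.50 [1.002, 41.4], from only 2 and 12 UMIs. In that class 6.34% of 9095 genes lay more than 1.5-fold higher and 6.79% more than 1.5-fold lower. Without cells that hold optic markers, described below, the ratio there was 8.33 [1.21, 359], from 1 and 11 UMIs, beside 6.67% and 7.23% of 8908 genes.

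In the library labelled KO *Mab21l2* was lower in retina-like cells and differed little in pigment epithelium-like cells. Its ratio was 0.821 [0.762, 0.885] in retina-like cells, less than 1.5-fold. It was 0.969 [0.913, 1.03] in pigment epithelium-like cells and 1.11 [0.891, 1.40] in forebrain-like cells, where 6.75% of 9454 genes lay more than 1.5-fold higher and 4.46% more than 1.5-fold lower. Over all cells it was 0.915 [0.883, 0.947], and 0.927 with the class mix of the WT library. In endothelium-like cells it was 0.322 [0.101, 0.891], from 14 and 6 UMIs, beside 6.34% of 9095 genes more than 1.5-fold higher and 6.79% more than 1.5-fold lower. Without cells that hold optic markers, described below, it was 0.541 [0.135, 1.98] there, beside 6.67% and 7.23% of 8908 genes, and the endothelium-like cluster turned the direction, with 7.37 CPM [4.03, 12.4] in the WT and 8.78 CPM [5.50, 13.3] in the KO library, which overlapped. Erythroid-like cells, with 3 UMIs in each library, gave no usable ratio, and 5.47% and 9.77% of 5627 genes lay past 1.5-fold in them.

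**Figure D2:**
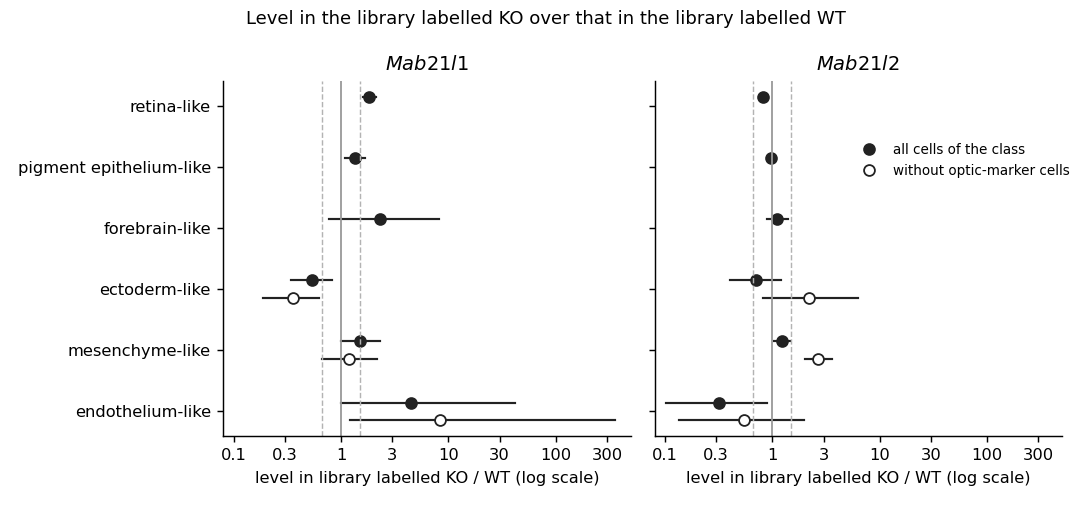
Level of *Mab21l1* (left) and *Mab21l2* (right) in the library labelled KO divided by that in the library labelled WT, on a log axis, with 95% intervals for counting error; the solid line is a ratio of 1 and dashed lines mark 1.5-fold. Filled points take all cells of the class, open points leave out cells that also hold 2 or more retina or pigment epithelium markers: *Mab21l1* lies above 1 in retina-like cells (1.84) and below 1 in ectoderm-like cells (0.537 and 0.355), and *Mab21l2* in mesenchyme-like cells moves from 1.23 to 2.69.

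Ectoderm-like cells, the class that contains the future lens, went against the retina-like cells. *Mab21l1* gave 82 UMIs in 53 WT cells and 31 UMIs in 43 KO cells, a ratio of 0.537 [0.343, 0.820]. In this small class 8.84% of 7667 genes lay more than 1.5-fold higher and 10.3% more than 1.5-fold lower, a wider background than in retina-like cells. The share of cells with a UMI was 58.5% [44.1, 71.9] and 39.5% [24.98, 55.6]. No ectoderm-like KO cell held more than 4 UMIs of *Mab21l1*, against a highest value of 8 in the WT library, where 6 cells held 5 or more. At 10000 UMIs per cell the ratio was 0.720 [0.387, 1.303] and the shares were 36.0% [22.9, 50.8] and 35.0% [20.6, 51.7], so that a difference was not detectable at that depth.

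Markers of the optic vesicle were also present in some of these cells. Of the ectoderm-like cells, 7 in the WT library and 9 in the KO library held UMIs of 2 or more retina markers or 2 or more pigment epithelium markers. They are called optic-marker cells here, a limit chosen after the values were seen. Their median depths were 28824 and 28440 UMIs, against 16975 and 15934 in the other ectoderm-like cells. In the other 46 WT cells *Mab21l1* stood at 81.3 CPM, from 68 UMIs, and in the other 34 KO cells at 28.9 CPM, from 15 UMIs, a ratio of 0.355 [0.189, 0.628], while 8.98% of 6778 genes lay more than 1.5-fold higher and 11.7% more than 1.5-fold lower. In the optic-marker cells themselves *Mab21l1* stood at 54.0 CPM [29.5, 90.7] and 63.3 CPM [36.2, 102.8], with overlapping intervals. For *Mab21l2* they mattered more. The WT ectoderm-like level of 40.2 CPM [29.2, 53.9] rested on them. There 36 of 44 UMIs (81.8%) came from 4 of the 7 optic-marker cells, and 11 of 22 KO UMIs from 5 of 9. Without optic-marker cells *Mab21l2* was at 9.56 CPM (8 UMIs) and 21.2 CPM (11 UMIs), a ratio of 2.22 [0.812, 6.35] in place of 0.710 [0.405, 1.21].

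Most ectoderm-like cells, 43 of 53 in the WT library and 38 of 43 in the KO library, held *Pax6* or *Six3*, transcription factors needed for the lens. *Mab21l1* was at 84.9 CPM [67.3, 106] and 43.5 CPM [29.5, 61.7] in those cells, a ratio of 0.512 [0.327, 0.784]. The 10 WT and 5 KO cells with neither gene held 2 and 0 UMIs of *Mab21l1*. *Pax6* and *Six3* are also genes of the optic vesicle, so optic-marker cells are part of the first set.

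In mesenchyme-like cells the *Mab21l2* ratio depended on which cells were counted. All 503 WT cells held 216 UMIs, or 20.9 CPM [18.2, 23.9], and all 765 KO cells 334 UMIs, or 25.8 CPM [23.1, 28.7], a ratio of 1.23 [1.04, 1.47], beside 3.17% of 11948 genes more than 1.5-fold higher and 3.49% more than 1.5-fold lower. Without the filter on cells the direction turned, at 0.943 [0.804, 1.11]. As in the ectoderm, a few optic-marker cells carried much of this. The 30 such WT cells held 154 of the 216 UMIs (71.3%), and the 44 KO cells 119 of the 334 (35.6%). A *Mab21l2* UMI was detected in 18 and 24 of them. Optic-marker cells were deeper than the rest of the class, with medians of 34288.5 and 26322.5 UMIs against 18972 and 15613. Among the remaining 473 and 721 cells *Mab21l2* stood at 6.90 CPM [5.29, 8.85] and 18.5 CPM [16.1, 21.2], a ratio of 2.69 [2.02, 3.62], beside 3.46% of 11651 genes more than 1.5-fold higher and 3.59% more than 1.5-fold lower. It was detected in 10.1% [7.58, 13.2] of those WT cells and 17.6% [14.9, 20.6] of those KO cells. The WT level of 6.90 CPM overlapped that of endothelium-like cells without optic markers, 4.17 CPM [1.68, 8.59]. *Mab21l1* stayed low in the remaining mesenchyme-like cells, at 2.34 CPM [1.45, 3.57] and 2.76 CPM [1.89, 3.89].

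Within the mesenchyme-like clusters, optic-marker cells left out, most *Mab21l2* UMIs lay in 1 cluster. Clusters of both libraries were found without the members, and 4 clusters were mesenchyme-like. Without optic-marker cells, the cluster led by *Tbx2* had *Mab21l2* among its leading genes by fold, at 40.8 CPM against 3.72 CPM in the other mesenchyme-like clusters, as well as *Tbx3*. *Tbx2* and *Tbx3* encode T-box transcription factors. In that cluster *Mab21l2* stood at 27.2 CPM [19.3, 37.4] in 79 WT cells and 45.4 CPM [39.1, 52.3] in 270 KO cells, a ratio of 1.67 [1.17, 2.43]. In the cluster led by *Cxcl12* and *Foxd1* it stood at 2.78 CPM [1.65, 4.39] in 301 WT and 3.84 CPM [2.51, 5.63] in 399 KO cells. The cluster led by *Rpgrip1* was also led by *Actb*, at 12506 CPM against 1455 CPM in the other mesenchyme-like clusters. It held few *Mab21l2* UMIs, 4 among 84 WT cells and 7, in 5 cells, among 31 KO cells. These gave 4.21 CPM [1.15, 10.8] and 26.5 CPM [10.7, 54.6], a ratio of 6.30 [1.60, 29.3]. The KO level overlapped those of the *Tbx2* cluster in both libraries. The cluster led by *Fam46a* held 1 UMI in each library, in 12 WT and 44 KO cells. The part of cluster sizes in the class ratio was not tested.

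**Figure D3:**
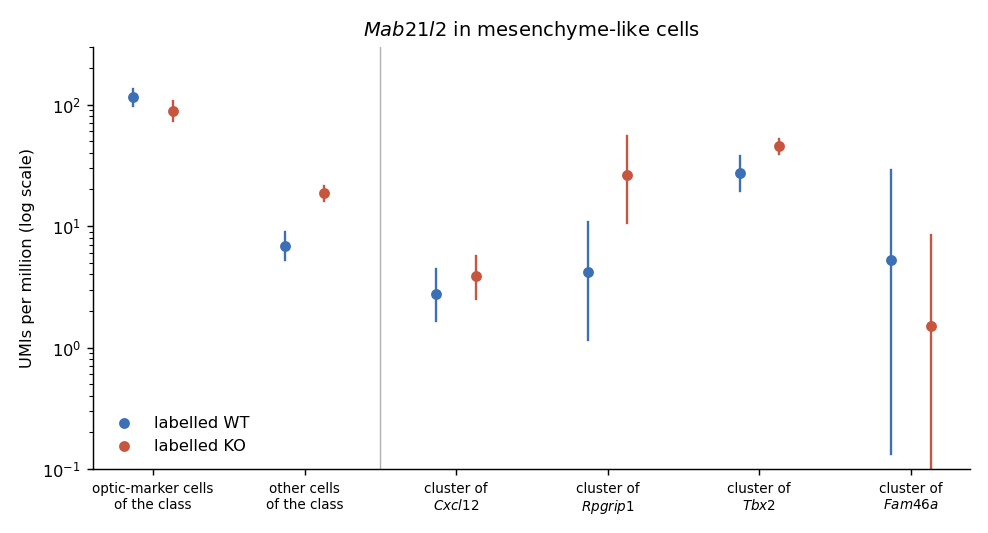
*Mab21l2* level in mesenchyme-like cells, in CPM on a log axis with exact 95% Poisson intervals, for the libraries labelled WT (blue) and KO (red); left of the grey line the marker-gated class is divided into cells with and without optic markers, right of it are the 4 mesenchyme-like clusters without optic-marker cells, named by their leading gene. Optic-marker cells stand at 115 and 88.8, and the cluster of *Tbx2* at 27.2 and 45.4.

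Neural crest-like cells gave a further case of the same kind. The 31 WT and 29 KO cells held 22 and 31 UMIs of *Mab21l2*, or 35.2 CPM [22.0, 53.2] and 54.7 CPM [37.2, 77.7]. Of these, 19 and 29 lay in 2 of 3 and 4 of 7 optic-marker cells. The 3 and 7 optic-marker cells had median depths of 64544 and 40591 UMIs, against 16373 and 15490 in the other cells. Over all cells of this class 11.8% of 6001 genes lay more than 1.5-fold higher and 8.33% more than 1.5-fold lower, and the *Mab21l2* ratio was 1.56 [0.873, 2.82]. Their *Mab21l1* UMIs, 9 and 11, lay in the same optic-marker cells apart from 1 in the WT library. In the other 28 and 22 cells *Mab21l2* was at 6.34 CPM [1.31, 18.5] and 6.02 CPM [0.729, 21.7], from 3 and 2 UMIs. The ratio was 0.949 [0.0792, 8.28], beside 14.9% and 9.13% of 4686 genes past 1.5-fold. Endothelium-like cells without optic markers stood at 4.17 CPM [1.68, 8.59] and 2.26 CPM [0.733, 5.27], which overlapped. A level above that background was thus not detectable in the neural crest-like cells without optic markers at this depth.

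Within retina-like cells the level of both genes differed with the detection of dorsal and ventral transcription factors. Position itself was not measured. Retina-like cells were divided by *Tbx5*, a dorsal transcription factor, and by *Vax1* and *Vax2*, ventral ones. In cells with *Tbx5* alone, *Mab21l1* stood at 64.0 CPM [50.6, 79.8] in 48 WT cells and 146 CPM [128, 164] in 77 KO cells. In cells with *Vax1* or *Vax2* alone it stood at 35.4 CPM [29.6, 42.1] in 147 WT cells and 60.6 CPM [55.0, 66.7] in 295 KO cells. The cells with *Tbx5* were thus higher in each library, and the ratio of KO to WT was 2.28 [1.76, 2.97] in them against 1.71 [1.40, 2.10] in the cells with a *Vax* gene, with overlapping intervals. *Mab21l2* had the same direction, with 303 CPM [273, 336] and 240 CPM [218, 264] in the cells with *Tbx5* and 146 CPM [134, 159] and 126 CPM [117, 134] in the cells with a *Vax* gene. Cells with neither marker had a lower median depth, 14480 and 16362 UMIs. In them *Mab21l1* was at 46.2 CPM [35.6, 59.0] and 85.6 CPM [74.8, 97.5], so that its higher level in the library labelled KO was present in all 3 subsets. *Mab21l2* in them was at 156 CPM [136, 178] and 137 CPM [123, 152], which overlapped the cells with a *Vax* gene. Pigment epithelium markers were not compared between the subsets.

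**Figure D4:**
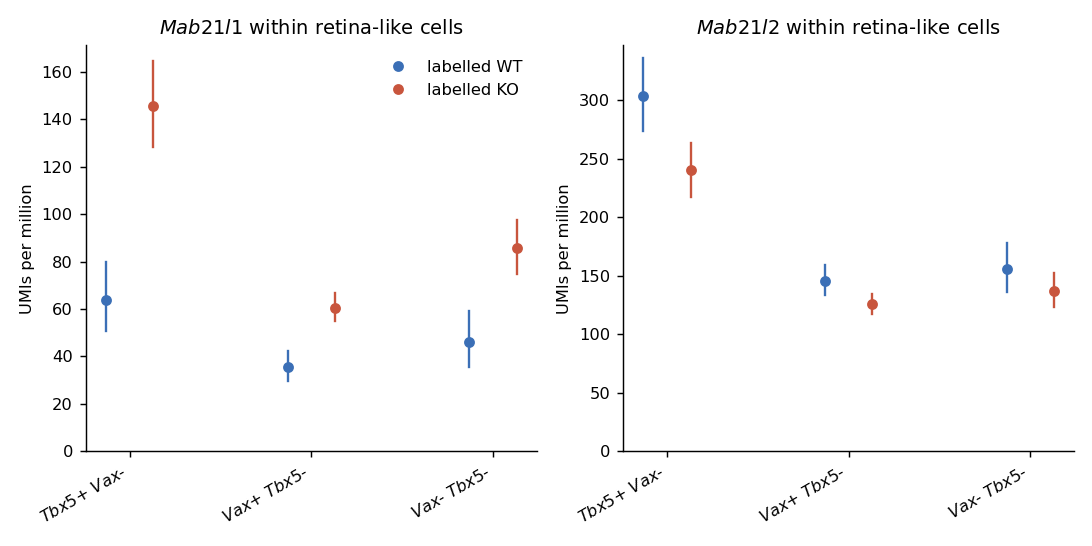
Level of *Mab21l1* (left) and *Mab21l2* (right) in subsets of retina-like cells, in CPM on linear axes that start at 0, with exact 95% Poisson intervals, for the libraries labelled WT (blue) and KO (red); + and - say whether a cell held a UMI of the gene, and *Vax* stands for *Vax1* or *Vax2*. *Mab21l1* is highest in the cells with *Tbx5* of the KO library (146), and *Mab21l2* in the cells with *Tbx5* of the WT library (303).

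*Mab21l1* and *Mab21l2* were often detected in the same cell, to an extent that differed between classes. In pigment epithelium-like cells every cell with *Mab21l1*, 74 of 74 and 91 of 91, also held *Mab21l2*, which was fixed in advance because every cell of the class held *Mab21l2*. After thinning, cells of that class with both genes were 0.970 and 1.001 times as many as the 2 shares alone would give. As 157 of 165 WT and 177 of 181 KO cells still held *Mab21l2*, these quotients could not lie far from 1 and say little. In retina-like cells 108 of 282 WT cells (38.3%) and 242 of 530 KO cells (45.7%) held both, which is 1.07 and 1.04 times what the shares of each gene alone would give. 24 WT and 59 KO retina-like cells held only *Mab21l1*, 108 and 167 only *Mab21l2*, and 42 and 62 neither. After thinning the same quotients were 0.981 and 1.001, so that within retina-like cells the genes were detected together about as often as their shares alone give. Over all cells the quotient was 1.60 and 1.56, over cells of all classes together.

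In ectoderm-like cells of the WT library 26 cells held only *Mab21l1*, 5 only *Mab21l2* and 5 both. In the library labelled KO 7 cells held only *Mab21l1*, 4 only *Mab21l2* and 10 both. Without optic-marker cells, 25 WT cells held only *Mab21l1* and 1 held both, against 5 and 5 KO cells. The numbers are too small for more than a description. In mesenchyme-like cells without optic markers 46 WT and 118 KO cells held only *Mab21l2*, and 2 and 9 held both.

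**Figure D5:**
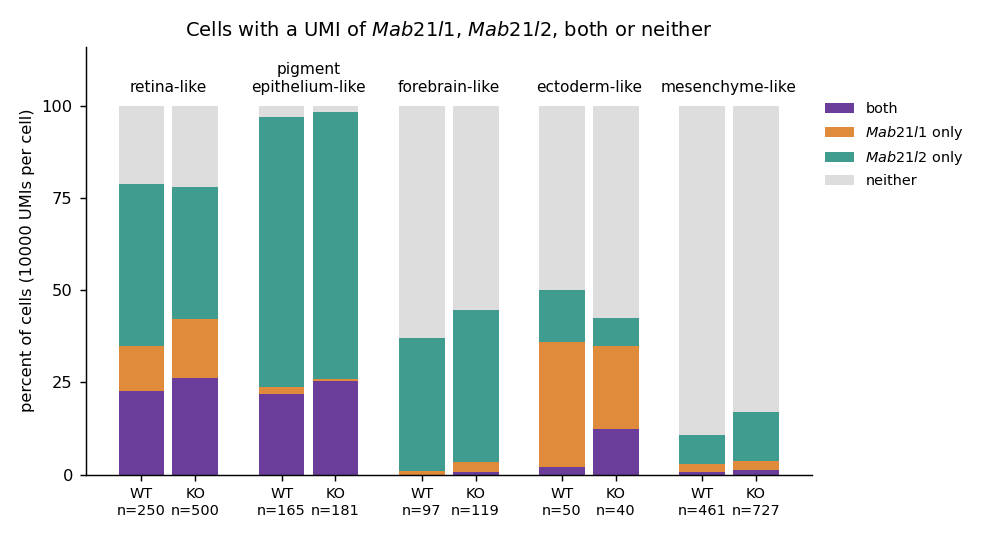
Percent of cells of 5 classes with a UMI of both genes (purple), *Mab21l1* only (orange), *Mab21l2* only (green) or neither (grey), after thinning each cell to 10000 UMIs; n is the number of cells with that many UMIs in the libraries labelled WT and KO. Nearly all pigment epithelium-like cells hold *Mab21l2*. In ectoderm-like cells of both libraries, cells with neither gene form the largest group. Among the ectoderm-like cells with a UMI of either gene, *Mab21l1* only is the most frequent group in both libraries.

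Within retina-like cells the level of *Mab21l2* was compared between cells with and without *Mab21l1*. It was 193 CPM [178, 208] with and 167 CPM [153, 182] without *Mab21l1* in the library labelled WT, and 142 CPM [133, 151] with and 160 CPM [148, 172] without it in the library labelled KO. The intervals overlapped in each library, and the order differed between the libraries. Pigment epithelium-like cells had the reverse order, 373 CPM [352, 396] with and 409 CPM [384, 435] without in the WT library and 423 CPM [399, 447] with and 332 CPM [311, 353] without in the KO library. In ectoderm-like cells, optic-marker cells included, *Mab21l2* was at 53.4 CPM [37.6, 73.6] with and 17.4 CPM [6.999, 35.9] without *Mab21l1* in the WT library. In the KO library it was at 44.9 CPM [26.1, 71.9] with and 12.7 CPM [4.13, 29.7] without, with overlapping intervals. These sets held 5 to 37 UMIs each, and 36 of the 44 WT UMIs lay in optic-marker cells. Without optic-marker cells, *Mab21l2* was detected in 1 of 26 WT cells with *Mab21l1*, and 5 WT cells held it alone. In the KO library it was detected in 5 of 10 such cells, and 4 cells held it alone. In each class and library whose levels were compared here, cells with *Mab21l1* were deeper, with a median of 39655 against 24303.5 UMIs in the pigment epithelium-like cells of the WT library.

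The host genes were examined because their exons overlap the members on the other strand, and whether counting used strand is not given in the sources used here. *Nbea*, which encodes a protein of membrane traffic, stood at 18.5 and 22.7 CPM in retina-like cells, a ratio of 1.23 [0.984, 1.53], and at 20.3 and 27.4 CPM in pigment epithelium-like cells, a ratio of 1.35 [1.053, 1.73]. In ectoderm-like cells its ratio was 0.757 [0.385, 1.43]. *Nbea* lay on the same side of 1 as *Mab21l1* in these 3 classes, with intervals that include 1 in retina-like and ectoderm-like cells. In forebrain-like cells *Nbea* stood at 14.9 and 12.9 CPM, a ratio of 0.868 [0.519, 1.45], and in mesenchyme-like cells at 12.5 and 12.3 CPM, a ratio of 0.983 [0.774, 1.25], where the ratios of *Mab21l1* were 2.29 and 1.51. *Lrba*, a related gene, had a ratio of 0.798 [0.618, 1.03] in retina-like cells and 1.88 [1.37, 2.62] in mesenchyme-like cells, from 5.42 to 10.2 CPM, which are the directions of *Mab21l2* there. In ectoderm-like cells it was 1.25 [0.582, 2.67], where *Mab21l2* was 0.710, and in forebrain-like cells 0.994 [0.552, 1.81]. The part of reads from the host genes in the member counts, or of the reverse, was not tested.

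Of 9 further genes with a Mab21 domain, 8 were among the counted genes. The background shares, more than 1.5-fold higher and lower over all genes tested in a class, stand in parentheses. In retina-like cells (4.15% and 3.38%) 5 of them reached 20 UMIs, of which 2 lay more than 1.5-fold higher in the library labelled KO and 0 more than 1.5-fold lower, with a median ratio of 0.830 beside 1.01 for all genes there. *Mb21d2* had a ratio of 1.57 [1.11, 2.24], from 46 and 132 UMIs, and *Itpripl2* one of 3.10 [0.895, 16.5], from 3 and 17 UMIs. The other 3 were *Mief1* and *Mief2*, which encode receptors of mitochondrial fission, at 0.753 [0.561, 1.01] and 0.830 [0.488, 1.44], and *Itpripl1*, at 0.683 [0.431, 1.09]. In mesenchyme-like cells (3.17% and 3.49%) 5 reached 20 UMIs and none lay past 1.5-fold, with *Itpripl1* at 0.677 [0.465, 0.981]. In ectoderm-like cells (8.84% and 10.3%) 2 reached 20 UMIs, *Mb21d2* at 2.84 [1.15, 7.66] from 8 and 16 UMIs and *Itpripl1* at 1.06 [0.396, 2.75]. In pigment epithelium-like cells (5.05% and 3.39%) none of 4 lay past 1.5-fold, and the same held for 3 in forebrain-like (6.75% and 4.46%) and 3 in endothelium-like cells (6.34% and 6.79%). In erythroid-like cells (5.47% and 9.77%) *Itpripl1* alone reached 20 UMIs, and its ratio was 0.665 [0.334, 1.31]. *Itpripl2* differed between classes in both libraries, at 21.6 and 18.3 CPM in endothelium-like cells against 0.466 and 1.44 CPM in retina-like cells. *Mb21d1*, the gene of cGAS, had 20 and 23 UMIs over all cells, or 0.478 and 0.439 CPM. Of these UMIs 9 and 3 lay in the 17 and 7 macrophage-like cells, or 14.7 CPM [6.70, 27.8] and 13.9 CPM [2.88, 40.7]. *Mab21l4* (*2310007B03Rik*) had 11 and 5 UMIs over all cells. Of these, 7 and 5 lay in ectoderm-like cells, or 6.39 CPM [2.57, 13.2] and 6.48 CPM [2.10, 15.1].

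The genes whose levels over the 8 classes of both libraries were most like those of each member were found by Pearson's r of log2(CPM + 1) over 16 class sums, among 7607 genes. These sums share 2 libraries, and r is given as a description. For *Mab21l1* they were *Aldh1a7* (r = 0.942), *Dkk3* (0.934) and *Eef1g* (0.933). *Mab21l2* was most like *Hddc2* (0.972), *Otx2* (0.964), which encodes a homeobox factor of the optic vesicle and pigment epithelium, and *Nasp* (0.961), which encodes a histone chaperone. *Mab21l1* and *Mab21l2* correlated with each other at 0.734, and *Mab21l2* ranked 405 among the genes most like *Mab21l1*. *Dkk3* ranked first for *Mab21l1* in the WT library alone and with a pseudocount of 10 CPM, and *Otx2* stayed within the first 5 for *Mab21l2*, whereas the genes named for *Mab21l3*, *Abhd10* (0.856), *Arfip2* (0.852) and *Prim2* (0.850), ranked between 128 and 211 in the WT library alone.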

How the data were processed

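Cells of the ocular area of 1 WT and 1 *Mab21l1*-null embryo were sequenced as 1 library each. Per the labels and the study's methods, the authors used Cell Ranger to count UMIs on mm10 (GRCm38). Both libraries were then merged by its aggr program, which may subsample the deeper one. The deposited values are whole-number UMI counts per gene and cell, not scaled per cell. The gene model release is not given in the sources used here.

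Kept barcodes had 1500 to 8000 genes and no more than 5% of UMIs from mitochondrial genes, the study's stated limit being read as a fraction and not as a percent. A class required at least this many detected markers: retina 3 of 5, with at most 2 pigment epithelium and 1 forebrain markers; pigment epithelium 4 of 7, with at most 1 forebrain marker; forebrain 3 of 11, with at most 2 pigment epithelium and 3 retina markers; ectoderm 4 of 10; mesenchyme 5 of 10; neural crest 4 of 6; endothelium 4 of 8; erythroid 4 of 7; macrophage 3 of 5. A cell passing several gates was left out. These limits were chosen with the data in view. The members and lists were chosen with earlier results of these data known. Counts were summed per class and library and divided by the class total. Genes named are the members, their host genes, *Mab21l4*, other Mab21-domain genes with at least 20 UMIs, and the 3 genes most like each member. A mesenchyme-like cluster is named by its leading genes. A further division of retina-like cells is not reported here. Thinning left out cells under 10000 UMIs. The code for ratios and their intervals was checked on simulated counts. Doublets were kept; Scrublet (scanpy 1.11.5) at a score of 0.25 called 23 WT and 30 KO barcodes. The unsupervised grouping used 2000 variable genes and 30 principal components with Leiden clustering (igraph 0.11.9). Python 3.11.15, numpy 2.4.6, scipy 1.17.1 and GENCODE vM21 were used. Alternatives chosen after seeing the data were leaving out optic-marker cells, leaving out shared barcodes and widening the retina gate.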

Additional observations from a re-analysis of the deposited data

Results flagged for a closer look

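The members' levels in the library labelled KO, relative to the library labelled WT, lay on opposite sides of 1 in different cell classes, with counting intervals that exclude 1. The difference between classes was not tested, as each genotype has 1 library. For *Mab21l1* the ratio was 1.84 in retina-like cells, 1.35 in pigment epithelium-like cells and 1.51 in mesenchyme-like cells, against 0.537 in ectoderm-like cells. The mesenchyme-like interval, [1.007, 2.30], barely excluded 1, and the value was 1.18 [0.660, 2.15] without optic-marker cells. For *Mab21l2* it was 1.23 in mesenchyme-like cells (0.943 without the filter on cells, which turns the direction), against 0.821 in retina-like cells and 0.322 in endothelium-like cells, the last from 14 and 6 UMIs. Of the 14 UMIs, 7 lay in 1 of the 3 optic-marker cells, and without such cells the endothelium-like ratio was 0.541 [0.135, 1.98]. In the endothelium-like cluster of the unsupervised grouping the direction turned, with 7.37 CPM in the WT and 8.78 CPM in the KO library.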

How the results depend on the processing

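No paired analysis was possible because each genotype has 1 library, which also leaves no replicate to leave out. Of 86 values of the KO to WT ratio under the alternatives, 74 stayed within the counting interval. Of 318 levels of the members by class, 266 did so and 52 moved beyond it. With clusters in place of gates 19 of 48 levels moved. The ratio of *Mab21l1* stayed on 1 side of 1 in retina-like, pigment epithelium-like, ectoderm-like and mesenchyme-like cells under every alternative run, with 1.80 to 2.11, 1.24 to 1.64, 0.355 to 0.720 and 1.18 to 1.93. Its interval did not always exclude 1. In mesenchyme-like cells it was 1.26 [0.861, 1.85] without the filter on cells, 1.28 [0.736, 2.28] with clusters and 1.37 [0.897, 2.13] without Scrublet calls. A stricter gate gave 1.93 [1.27, 3.00] there. After thinning the interval included 1 in pigment epithelium-like, ectoderm-like and mesenchyme-like cells. With clusters in place of gates the ratio of *Mab21l1* was 2.11 in retina-like cells and 0.581 in forebrain-like cells, against 2.29 with gates. The forebrain value pools 2 clusters that hold different shares of each library (129 and 150 WT, 208 and 57 KO cells) and differ in level. The cluster ratio of *Mab21l2* was 2.603 [1.34, 5.24] in ectoderm-like and 2.95 [2.21, 3.97] in mesenchyme-like cells, where the clusters hold other cells than the gates. Both intervals exclude 1, whereas the ectoderm-like intervals with gates include 1. The *Mab21l2* ratio in mesenchyme-like cells was 0.943 without the filter on cells, 1.61 with a stricter gate, 1.87 as a mean over cells, 2.03 after thinning and 2.69 without optic-marker cells; beside the counts of those cells, the cause was not tested. It was 0.895 in retina-like cells as a mean over cells, 0.910 in pigment epithelium-like cells after thinning and 2.22 in ectoderm-like cells without optic-marker cells. Size factors, removing Scrublet calls and leaving out shared barcodes moved none of these ratios beyond its interval. These steps could change little. Size factors were 0.993 to 1.02 in these classes, and 15 barcode sequences were shared. Removing Scrublet calls left the retina-like, pigment epithelium-like, forebrain-like and ectoderm-like ratios identical, so it was no check on doublets there. Depth limits *Mab21l3* in all classes and both genes in ectoderm-like cells.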

Other observations

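The barcodes left out by the filter on cells, 65 WT and 54 KO barcodes, held 278 and 57 UMIs of *Mab21l2*, or 158 CPM [140, 178] and 79.5 CPM [60.2, 102.9], and 37 and 12 UMIs of *Mab21l1*, or 21.1 CPM [14.8, 29.0] and 16.7 CPM [8.64, 29.2].

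Cells in no class, 371 and 495, held 191 CPM [183, 200] and 173 CPM [166, 181] of *Mab21l2* and 21.2 CPM [18.5, 24.2] and 27.1 CPM [24.1, 30.3] of *Mab21l1*, and accounted for 32.9% and 28.8% of the *Mab21l2* UMIs. The 54 and 63 cells that passed several gates held 120 CPM [105, 137] and 107 CPM [94.0, 122] of *Mab21l2*. Macrophage-like cells, 17 and 7, held 1 and 0 UMIs of *Mab21l2* and 0 and 2 of *Mab21l1*.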
